A study of Homo sapiens with 4 samples.

Results

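Band 20q13.33 is the end of the long arm of human chromosome 20. ELF5 peaks were taken as members when their summit lay on chromosome 20 between 58400 and 63026 kb on hg19, with 60845 to 60980 kb left out, and 1246 of the 115384 peaks in the list met this rule. The band had been chosen by its measured density of peaks in this list, and its strongest peak, the marked peak below, was singled out by the same rule. The number of peaks in the band and the strength of that peak therefore describe the choice and were not tested. Peaks inside the left-out interval are not described here.

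The list came from ChIP-seq of ELF5 in T47D, an established line of human luminal A breast epithelial cells that was left untreated and kept in RPMI with 10% FBS and insulin. The labels gave 3 ELF5 ChIP replicates, all with antibody sc-376737, and 1 input sample of the same cells. They did not say whether the replicates were separate cultures, and the track name of the list, 1-3, leaves unclear whether it rests on all 3 or on replicates 1 and 3. The protocol text of the labels names antibodies against factors other than ELF5. The list held 1 value per peak and none per replicate. Replicate spread and input level are therefore unknown for each value below, and no test was made. Positions are those of hg19, starting at 1.

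ELF5 belongs to the ETS family of transcription factors, which bind DNA through a shared ETS domain at sites with a GGAA core. In the mammary gland it is known as a regulator of luminal progenitors and of the secretory alveolar cells that make milk, and its activity in luminal breast cancer cells has been linked to estrogen and progesterone signalling. In ChIP-seq, fragments bound by the factor pile up over a site, and a peak is a stretch where that pileup stands above the local background. The fold enrichment of a peak is the ratio of its pileup to that background; here the authors' folds matched the pileup times a factor of 0.910, with 1 added to it and to the background, so a fold is lower than the plain ratio of the fragments printed beside it.

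A list of 56 genes of the band was drawn up from general knowledge. In the RefSeq table for GRCh38 all of them lay on chromosome 20, in an order that ran from SYCP2 to PCMTD2 at the telomeric side. Among them are CDH4, a classical cadherin of cell adhesion, TAF4, a subunit of the general transcription factor TFIID, and SLCO4A1, an organic anion transporter. They are followed by DIDO1, YTHDF1, a reader of methylated RNA, CHRNA4, which encodes a nicotinic receptor subunit, EEF1A2, a translation elongation factor, and PTK6, a non-receptor tyrosine kinase of epithelia. Toward the telomere come RTEL1, a helicase that protects telomeres, TNFRSF6B, a decoy receptor for death ligands, SOX18 and MYT1. The table is on another build, so these names describe what the band carries, and no peak was assigned to a gene.

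The band was crowded with ELF5 peaks, nearly all of them weak. Its 1246 peaks lay within 4.49 Mb, the length of the band without the left-out interval. That is 277 per Mb, whereas the whole list averaged 37.3 per Mb over the full chromosome lengths. The fold ran from 1.83 to 44.9 with a median of 3.17 and quartiles of 2.75 and 3.89, beside a median of 3.66 and quartiles of 2.98 and 5.50 in the whole list. A fold under 5 was found at 87.2% of the members and 71.6% of all peaks. The authors' q was under 0.05 at 977 members, or 78.4%, against 87.5% of the whole list, and the weakest member had a q of 0.535. Members and all peaks thus differed less at the lower than at the upper quartile of fold.

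**Figure D1:**
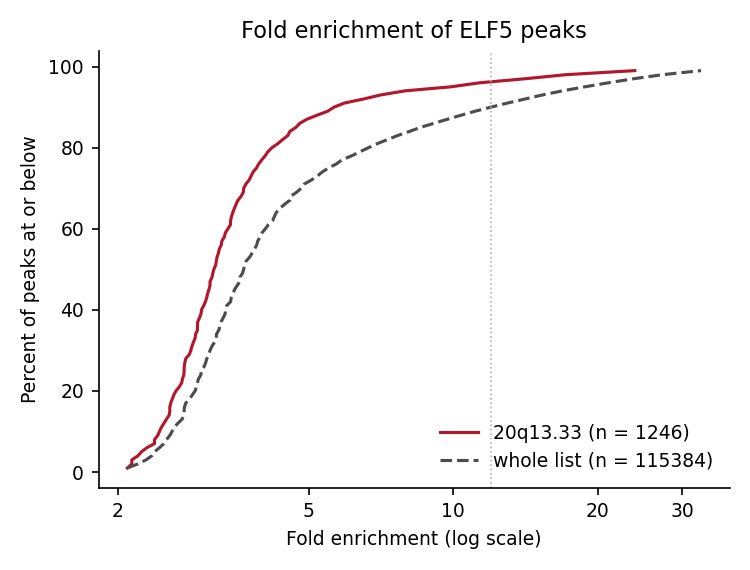
Percent of peaks (vertical axis) at or below a given fold enrichment (horizontal axis, log scale) for the 1246 members in red and all 115384 peaks as a dashed grey line; the dotted line marks the limit of strong peaks, a fold of 11.99. The red curve runs to the left of the grey one, with medians of 3.17 and 3.66, and at a fold of 5 it stands at 87.2% and the grey one at 71.6%.

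Strong peaks, defined as the highest 10% of folds in the whole list and starting at 11.99, made up a small part of the band. The members held 47, which is 3.77% (95% Clopper-Pearson interval 2.78 to 4.98), against 10.0% of the whole list. Because the band was so dense, this small share still amounted to 10.5 strong peaks per Mb, beside 3.73 per Mb over the whole list. With the highest 5% of folds 19 members (1.52%) were called, against 5.01% of the list, and with the highest 10% by p 57 members (4.57%), against 10.0%. The weakest strong member had a fold of 12.2, and the strongest of the remaining members, from 62129469 to 62130855, had a fold of 11.8 at a pileup of 129 fragments over a high background of 9. Among the 47 strong members the quartiles of fold were 15.0 and 24.4, beside 14.7 and 25.4 for all strong peaks of the list. The 95th and 99th percentiles of fold were 9.88 and 23.9 among the members, and 18.8 and 32.9 in the whole list.

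The same low share was found in other bands, so it was not particular to this one. Band 7p22.3 held 41 strong peaks among 1088 (3.77%), band 9q34.3 held 72 among 1490 (4.83%), and band 17q25.3 held 104 among 1824 (5.70%), all of them at chromosome ends. Their median folds of 3.13, 3.15 and 3.23 lay close to the 3.17 of 20q13.33. These 3 bands were denser in peaks, at 389, 391 and 309 per Mb. They were also denser in strong peaks, at 14.6, 18.9 and 17.6 per Mb, beside 10.5 in 20q13.33 and 5.95 on 20q before the band. Along the same arm, strong peaks made up 5.56% of 234 peaks in the adjoining band 20q13.32, 3.44% of 262 in 20q13.31 and 6.73% of the 2736 peaks between the centromere and 20q13.33. On the short arm the share was 9.76% of 1137 peaks. The differences between bands were not tested, since peaks of 1 list are not replicates.

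Depth limited what could be read from a single weak peak. The pileup behind each peak, recovered from the authors' fold and p, had a median of 15 fragments in the band and 16 in the whole list. At 15 fragments the exact Poisson 95% interval runs from 8.40 to 24.7, and at the members' median background of 3.63 fragments the fold of 3.16 has an interval from 1.87 to 5.08. Such an interval spans most of the folds in the band, so the order of typical members was not resolved. The strong members rested on a median of 118 fragments, with a lowest value of 63. The interval of the fold lay wholly above 11.99 at 34 of the 47, and it reached above 11.99 at 22 of the other members. These intervals cover counting error only and hold the background fixed.

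Peak number and strong peaks both changed along the band. From 60400 kb to the chromosome end there were 1029 peaks, or 413 per Mb, and 46 of them were strong; before 60400 kb there were 217, or 108.5 per Mb, and 1 was strong. This position was chosen after the counts had been seen. The telomeric stretch had a strong share of 4.47% (Clopper-Pearson interval 3.29 to 5.92) and the centromeric one 0.461% (0.0117 to 2.54). Their median folds were nearly the same, at 3.17 and 3.16, while the upper quartiles were 3.99 and 3.58. Median width was 219 bp in the telomeric and 179 bp in the centromeric stretch, and median background was 3.73 and 3 fragments. The part of this background in the difference was not tested.

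In steps of 1 Mb from the centromeric edge, the peaks numbered 54, 163, 319, 512 and 198, and the strong ones 1, 0, 12, 19 and 15. The third step had 865 kb left after the left-out interval and the last was 625.5 kb long. The strong share was highest in that last step, at 7.58%, and its median fold of 3.29 was also the highest of the 5. The first strong peak of the band was followed by 2.12 Mb without another, from the summit at 58515919 to that at 60640903. This stretch still held 284 peaks, and the strongest reached a fold of 11.5.

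**Figure D2:**
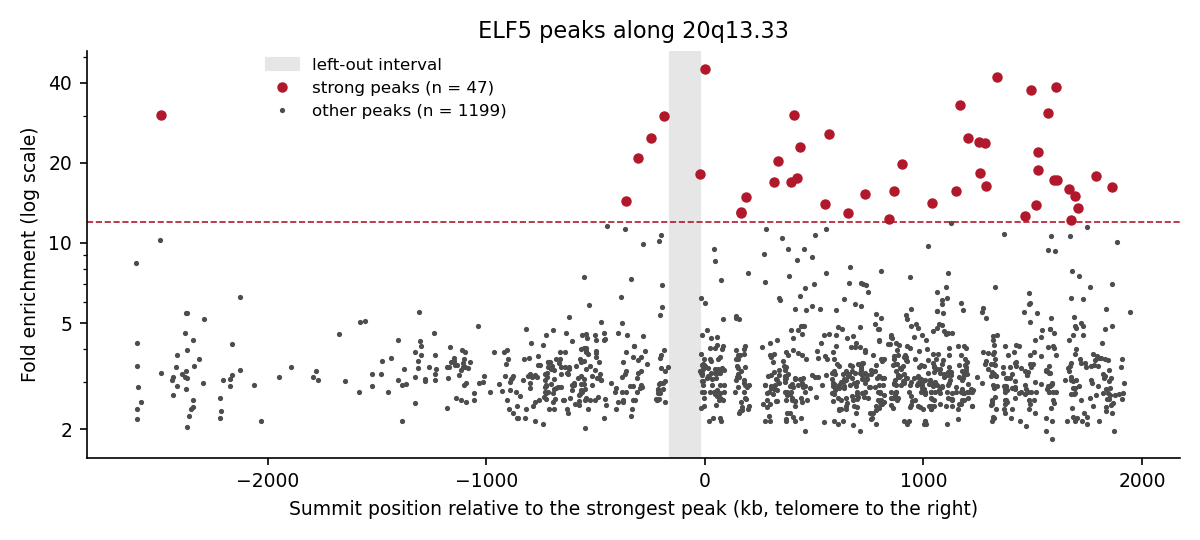
Fold enrichment (vertical axis, log scale) of every member against the distance of its summit from that of the strongest peak (horizontal axis, kb, telomere to the right), with strong peaks as red and others as grey points; the dashed line is the strong limit of 11.99 and the shaded bar the left-out interval. All but 1 of the 47 strong peaks lie in the telomeric stretch, and weak peaks run along the whole band.

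Bins of 100 kb with under 50 kb outside the left-out interval and the chromosome end were set aside, and over the 44 other bins the count ran from 1 to 66 with a median of 25. The densest bin, from 62000 to 62100 kb, held 66 peaks of which 1 was strong. The bin with most strong peaks, from 62600 to 62700 kb, held 6 among 37 peaks, and the bin from 62200 to 62300 kb held 5 among 26. The densest bins were thus not those richest in strong peaks. A strong peak was present in 21 of the 44 bins. Spearman's rho between the count of strong and of other peaks per bin was 0.646 over these bins, and between peak count and the median background it was 0.450. The bins share 1 list, its depth and the same threshold, so both values are descriptions.

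**Figure D3:**
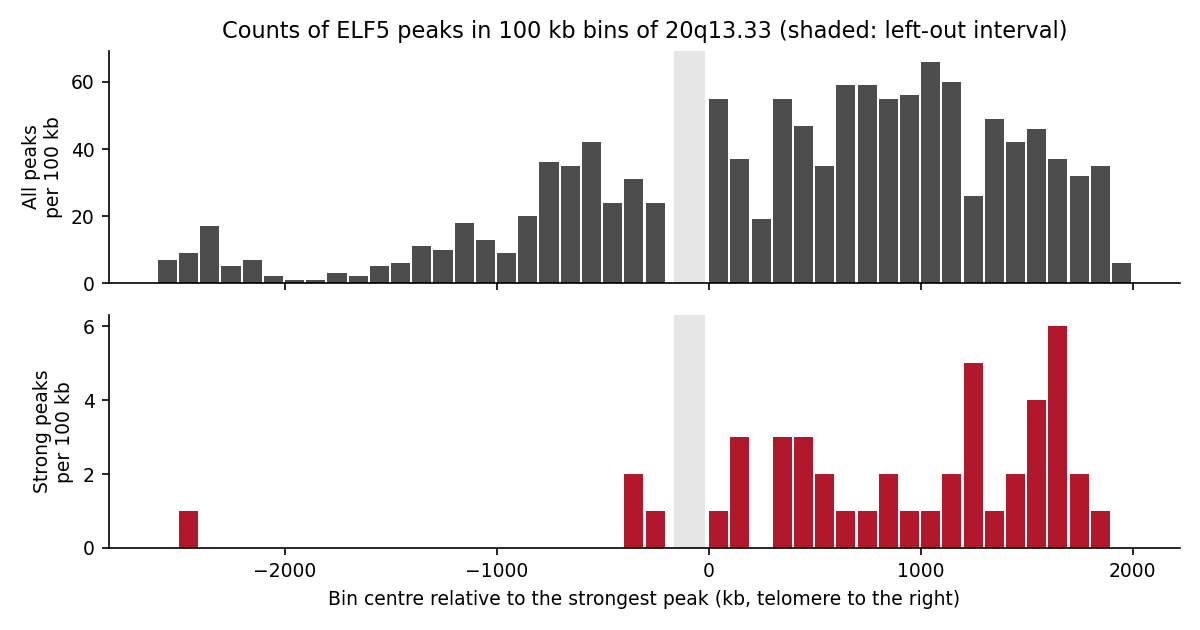
Number of members (upper panel) and of strong members (lower panel) in each 100 kb bin against the distance of the bin's centre from the strongest peak (kb, telomere to the right), for 44 bins with at least 50 kb covered; the shaded bar is the left-out interval, and 32 peaks in partly covered bins, 2 of them strong, are not drawn. The upper panel peaks at 66, and the lower panel peaks farther toward the telomere, at 6.

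The marked peak was the strongest of the band by fold, by p and by pileup. It covered 1560 bp from 61001734 to 61003293, with its summit at 61002733, toward the telomeric end of the peak at 64.0% of its width. Its pileup of 295 fragments stood over a background of 5.00, and with that factor and the added 1 its fold was 44.9 (95% counting interval 39.9 to 50.3), and the authors' −log10 q was 345. In the whole list it ranked 4 by p but 216 by fold. The background of 5.00 was higher than the list's median of 3.11 and weighs on the fold, a ratio to it. The intervals of 3 other members overlapped its own, so its first place by fold was not resolved from them.

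Around the marked peak the other members were weak, as most members of the band were. Within 10 kb of its summit lay 12 of them, with folds from 2.44 to 5.93. Their median of 3.23 was close to the 3.17 of all members. None of the 12 was strong, beside 3.77% of all members. The nearest on the centromeric side, from 61001335 to 61001677, had a pileup of 18 fragments and a fold of 3.44 (counting interval 2.12 to 5.32). The nearest on the telomeric side, from 61003516 to 61003921, had 38 fragments and a fold of 5.93 (4.24 to 8.08). Neither interval reached that of the marked peak, which was singled out for its strength, so this gap describes the choice. The left-out interval ends 22.7 kb to the centromeric side, with 1 other strong peak in between, from 60981796 to 60983047 with a fold of 18.2.

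The next 4 members by fold all lay farther toward the telomere. The peak from 62338540 to 62339885 had 206 fragments over 3.47 and a fold of 42.2 (36.6 to 48.3). It was followed by the peak from 62609697 to 62611655, with 207 fragments and a fold of 38.5 (33.5 to 44.1), and by the peak from 62494600 to 62497118, with 205 fragments and a fold of 37.5 (32.6 to 42.97). Member 5 in this order, from 62167757 to 62170901, had 192 fragments and a fold of 33.0 (28.5 to 38.0). These 3 peaks before it had nearly equal pileups over backgrounds between 3.47 and 4, and their fold intervals overlapped.

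The other 5 of the 10 strongest by fold had values from 25.7 to 30.8. The peak from 62572764 to 62573400 was narrow for its strength, 637 bp with a fold of 30.8 (26.0 to 36.3). The peak from 61407813 to 61408873 had a fold of 30.4 and the peak from 60813092 to 60814329, the last strong one before the left-out interval, a fold of 29.9. The peak from 58514508 to 58516132, with 167 fragments and a fold of 30.3 (25.9 to 35.2), was the single strong member of the centromeric stretch. Its summit lay 115.9 kb inside the band edge, at 86.8% of the peak's width. The tenth, from 61568684 to 61569851, had a fold of 25.7. The lists of 10 by fold and by p shared 9 peaks, and the one that ranked in the 10 by p alone, from 62205433 to 62206165, had a fold of 24.9 over a background of 5.00.

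Set against the whole list, the strong members were high in pileup and moderate in fold. Their median pileup was 118 fragments, beside 92 for all strong peaks, and their median fold was 17.6, beside 18.8. Their median background was 4.05 fragments against 3.11, and the lowest background under a strong member was 3.24. Only the marked peak was among the 100 of the list with the smallest p, and none was among the 100 with the highest fold. Of the first 1000 by fold, 4 were members, while the band held 1.08% of all peaks.

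**Figure D4:**
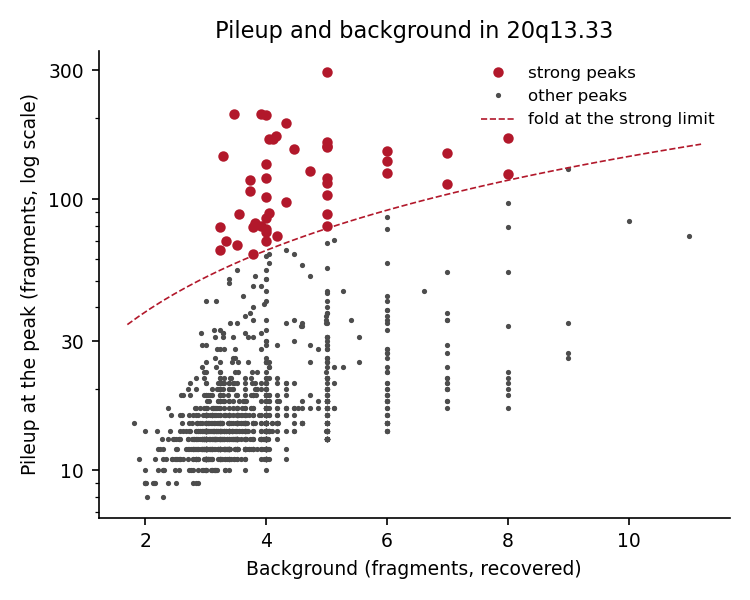
Pileup at the peak (vertical axis, fragments, log scale) against the local background (horizontal axis, fragments), both recovered from the authors' fold and p, for strong (red) and other (grey) members; the dashed line joins values at a fold of 11.99. No red point lies over a background under 3.24, and most grey points lie between 10 and 30 fragments.

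Shares of strong peaks were also set beside the list at 4 levels of background. The lowest and highest levels are open-ended, so backgrounds within them were not alike. The lower quartile of background was 2.30 in the whole list and 3.13 among the members, and the highest values were 256 and 11. The part of background in the low share was not tested. Over a background under 3 fragments none of 164 members was strong, with a Clopper-Pearson upper limit of 2.22%, against 10.5% of 43699 peaks in the whole list. At 3 to under 4 fragments, 14 of 587 members were strong, or 2.39% (Clopper-Pearson interval 1.31 to 3.97), against 8.28%. At 4 to under 6 the share was 6.40% of 406 members (4.23 to 9.24), against 10.9%. At 6 or more it was 7.87% of 89 members (3.22 to 15.5), against 10.6%, a value inside that interval. The intervals cover counting only and peaks of 1 list are not replicates, so no level was tested against the list. The share was lower in the band at all 4 levels of background. Among the members it was higher at each higher level, an order that the whole list did not show. The intervals at under 3 and 3 to under 4 overlapped, as did those at 4 to under 6 and 6 or more. Background also went with position: before 60400 kb its median was 3 with 1 strong peak among 217, and from there on 3.73 with 46 among 1029. The part of position in this order was not tested.

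**Figure D5:**
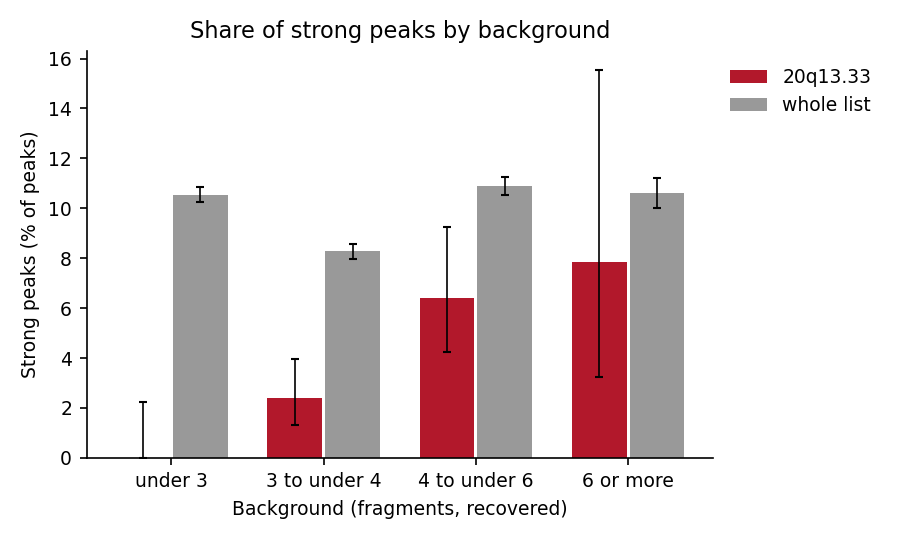
Share of strong peaks (vertical axis, percent) at 4 levels of recovered background (horizontal axis, fragments) for members of 20q13.33 (red) and the whole list (grey); error bars are 95% Clopper-Pearson intervals, which cover counting only. The members' share goes from 0% under 3 fragments to 7.87% at 6 or more, while the whole list stays between 8.28% and 10.9%.

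Members lay close together, which restates the density the band was chosen by. Leaving out the step across the left-out interval, neighbouring summits lay a median of 1360 bp apart, beside 4186 bp in the whole list, and 109 of 1244 distances were under 400 bp. Such tight pairs made up 8.76% of the distances in the band and 5.44% in the list. The smallest distance was 138 bp and the largest 98714 bp, between summits at 59110455 and 59209169. Peaks this close were counted separately.

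Joined within 12500 bp, the members formed 65 clusters, of which 21 were single peaks and 7 held at least 50 peaks. Those 7 contained 806 members, or 64.7%, with 25 strong peaks. The largest ran over 296 kb from the summit at 61838389 to that at 62134215, and of its 188 peaks 4 were strong. The strongest of them, from 61903697 to 61904656, had a fold of 19.8 (16.8 to 23.2). The second, with 151 peaks from 61584863 to 61824226, had 2 strong peaks, the higher with a fold of 15.2 from 61733134 to 61734133. The third held 124 peaks and 6 strong ones, with the fold of 30.4 named above as its highest.

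Clusters of like size differed in their strong peaks. The cluster of 96 peaks from 60261725 to 60484630 held none and reached a fold of 7.46, whereas that of 95 peaks from 62651147 to 62887046 held 6 and reached 17.8. Their median folds were close, 3.10 and 3.29, and their median backgrounds were 3.29 and 4 fragments. A cluster of 43 peaks from 62250068 to 62340236 held 5 strong ones, 11.6% of its members. The share of strong peaks was 3.10% in clusters of at least 50 peaks and 5.00% among the remaining 440 members. The marked peak's cluster held 75 peaks, 2 of them strong, and its centromeric end is set by the left-out interval.

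Some strong members lay next to each other. The median distance between neighbouring strong summits was 33.1 kb, and 3 pairs were under 2 kb apart. The peaks with summits at 62258526 and 62259787 had folds of 23.97 and 18.4, those at 62526449 and 62528270 had 22.0 and 18.8, and those at 61169001 and 61170341 had 12.9 and 13.09. In the telomeric stretch from 60400 kb, the other members were about as dense within 5 kb of a strong summit, at 391 per Mb, as elsewhere, at 395 per Mb. Over the whole band these densities were 385 and 255 per Mb, and the centromeric stretch was poor in both kinds of peak.

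Strong members were wide. Their median width was 995 bp, with a range from 266 to 3145 bp, against 204 bp for the other members. The whole list showed the same, with 818 bp for strong and 201 bp for other peaks. At least 2000 bp wide were 5 members, 0.401% against 0.448% of the whole list, and 3 of these were strong, as were 428 of the 517 in the list. The widest was the peak of 3145 bp from 62167757 to 62170901, followed by that of 2519 bp from 62494600. Those of 2438 bp from 62370472 and of 2059 bp from 58507528 had folds of 10.8 and 10.3, under the strong limit, and that of 2141 bp from 62668963 had a fold of 15.9. In the peak from 58507528 the summit stood at 7.63% of the width, 8.23 kb from the summit of the strong peak of the centromeric stretch.

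At the other extreme, 110 members had the smallest width of the list, 135 bp, which is 8.83% against 9.27% of all peaks. Their median fold was 2.75, beside 3.04 for peaks of that width in the whole list, and none exceeded 4.31. The authors' q was 0.05 or more at 56 of these members. The same count is not given for peaks of that width in the whole list, so it is not a trait shown for the band alone. Wider members tended to have higher folds, with a Spearman's rho of 0.484, against 0.598 over all peaks. Both come from the same pileup, so the rho is a description.

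No strong peak lay at an edge of the band. The first member, from 58401660 to 58401852, had a fold of 8.44, and its neighbour outside the band, from 58397722 to 58397940, a fold of 2.44 with its summit 3920 bp away. The last member, from 62947783 to 62948308, had a fold of 5.48 and left 77.4 kb to the chromosome end without a peak; assembly gaps were not taken out of any length. The members on either side of the left-out interval, from 60835499 to 60835739 and from 60980921 to 60981060, had folds of 3.42 and 3.29.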

How the data were processed

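ELF5 ChIP-seq of T47D cells was analysed from 1 list of 115384 peaks. The build is hg19, per the file headers. For the aligner, the caller and its threshold, the use of the input and any pooling, nothing is given in the sources used here. The track name refers to IDR and to 1-3, and whether that means replicates 1 to 3 or 1 and 3 is unclear. The authors' deposited score is 10 times the −log10 p, cut to a whole number. The authors' deposited fold (a ratio), −log10 p and −log10 q were used as given, to describe and rank peaks within the list.

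Pileup and background were recovered from fold and p as a whole pileup times a factor of 0.910, a pseudocount of 1 and a Poisson tail. Every one of the 115384 peaks was matched to within 0.001 on the −log10 scale, with a second solution at 95 peaks. The recovery was tested on simulated data. Total reads per sample are unknown here, and the counting intervals do not cover replicate error.

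Band limits came from circlize 0.4.16 in R 4.3.3. Values were computed in Python 3.11.15 with scipy 1.17.1, numpy 2.4.6 and pandas 2.3.3, and drawn with matplotlib 3.10.9. The members and lists were chosen with earlier results of these data known. Peaks named were the marked one, the 10 highest by fold and by p, up to 5 of at least 2000 bp, the strongest of the 3 largest clusters and those at the edges; pairs and other clusters were picked after their values were seen. Genome sequence and gene annotation on hg19 were not used here.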

Additional observations from a re-analysis of the deposited data

How the results depend on the processing

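Of 23 alternative values, 13 stayed within 1.5 times the main count or inside the main 95% interval, and 10 moved. The longest stretch without a strong peak was varied after seeing the data, and ran from 1.93 to 2.18 Mb over 3 other definitions of strong. The highest 50% of folds took in 30.7% of the members, against 50.2% of the list. Among these members the density was 85.1 per Mb, the median fold 4.64 and the median width 318 bp. That width was above the 307 bp of the list cut the same way, whereas with all peaks it was 209 bp in the band and 215 bp in the list. With q under 0.05 the median fold was 3.43, the median width 222 bp and the median background 3.51. The list cut the same way had 3.91, 227 bp and 3, so the order of band and list stayed as with all peaks. The strong share was 1.52% for the highest 5% of folds and 7.87% for the highest 20%. A cut by fold changes the density, the median fold and the strong share by construction. The turn in the order of widths against the list was not tested. Joining within 5 kb gave 194 clusters and within 25 kb gave 29, by construction. No paired analysis was possible because values per replicate are not in the list, and leaving out replicates was not run for the same reason. Pileups near 15 fragments leave weak members unranked.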
